A study of Mus musculus with 13 samples.

Results

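Tenocytes of uninjured mouse muscle were taken from 2 droplet single-cell libraries as the cells with at least 10 unique molecular identifiers (UMIs) summed over Tnmd, Fmod, Thbs4, Chad, Kera, Comp and Cilp2, UMIs of at least 3 of these 7 genes, and no UMI of Ptprc, which encodes the leukocyte antigen CD45. This rule picked 795 of 12441 cells. In library 1 it picked 307 of 6144 cells, a share of 4.997% with an exact 95% Clopper-Pearson interval of 4.47% to 5.57%. In library 2 it picked 488 of 6297 cells, or 7.75% (7.10% to 8.44%). These intervals and all others below cover counting error only, and the shares are of captured cells, not of cells in the muscle.

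The series held 13 samples, all from hindlimb muscle of wild-type C57BL/6 mice at 2 months of age. The 2 single-cell libraries were made from mononuclear cells of uninjured muscle without a sort. The other 11 were bulk libraries of sorted cells: 2 of fresh muscle stem cells (MuSC; negative for CD31, CD45 and Sca1, positive for VCAM1 and ITGA7), 3 of fresh smooth-muscle and mesenchymal-like cells (SMMC; the same gate but negative for VCAM1), 3 of SMMC kept 3 days in culture, here called proliferating, and 3 of SMMC that were cultured and left to differentiate. Whether the libraries of a group came from separate animals was not stated in the labels, and every p-value measures only the spread between these libraries.

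Tenocytes are the resident fibroblasts of tendon. They sit in rows between parallel fibrils of type I collagen, which they build, cross-link and keep in repair, and in muscle they are found where tendon and its sheets join the muscle fibres. The transcription factors scleraxis (Scx) and Mohawk (Mkx) are known to drive the tendon programme, and tenomodulin (Tnmd), a membrane protein, is its classical late marker. Of the other genes of the rule, Fmod (fibromodulin), Kera (keratocan) and Chad (chondroadherin) encode small leucine-rich repeat proteins that bind collagen, Thbs4 and Comp encode thrombospondins of the tendon matrix, and Cilp2 encodes a cartilage-type matrix protein.

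Tenocytes had more UMIs than most cells, with a median of 4815 UMIs per cell in library 1 and 3475 in library 2, against 2450 and 1935 in all other cells. Fibro-adipogenic progenitors, a fibroblast class described below, had still more, with medians of 5713.5 and 3871. Mitochondrial transcripts made up 2.99% and 2.44% of the UMIs of tenocytes. The 2 libraries held 19353328 and 15507938 UMIs, of which 1531700 and 1868091 came from tenocytes. They shared 53 cell barcodes, and no barcode was a tenocyte in both. Doublet calling with Scrublet marked 66 and 65 cells in all, of which 0 and 6 were tenocytes.

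Few cells lay near the thresholds of the rule. The 7 genes together gave a median of 129 UMIs per tenocyte in library 1 (range 11 to 489) and 75.5 in library 2 (range 10 to 316). All 7 genes were present in 123 tenocytes (40.1%) and 155 tenocytes (31.8%). Among all other cells, 81.5% and 66.2% had no UMI of any of the 7. Just inside the threshold, at 10 to 14 UMIs, lay 4 and 7 cells, and just outside it, at 5 to 9 UMIs, lay 10 and 14 cells that met the other conditions. The markers of fibro-adipogenic progenitors, the main fibroblasts of muscle, summed to 11754 and 4051 CPM (UMIs per 1000000 UMIs of those cells) in the cells just inside, to 9005 and 3569 in those just outside, and to 1042 and 905 in all tenocytes. A further 10 and 11 cells failed for a Ptprc UMI alone, and 24 and 6 for having fewer than 3 of the genes.

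**Figure D1:**
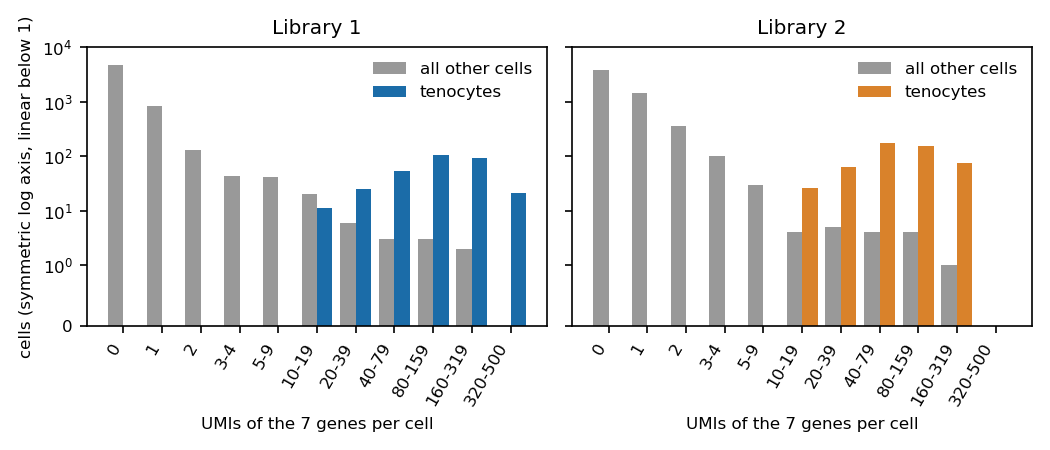
Number of cells (vertical axis, symmetric log scale that is linear below 1) by the UMIs of the 7 genes of the rule in that cell (horizontal axis, binned), for tenocytes in colour and all other cells in grey, 1 panel per library. Tenocytes have medians of 129 and 75.5 UMIs, while most other cells have 0.

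Summed over cells, the genes of the rule were far above every other cell class, as the rule requires. UMIs were added up over the cells of a class before scaling to CPM. Tnmd stood at 3006 and 2002 CPM in tenocytes of libraries 1 and 2, against 13.5 and 27.0 in all other cells. Fmod stood at 11163 and 8954 CPM against 35.9 and 99.2. Thbs4 stood at 9425 and 7300 against 74.3 and 93.3. Kera, the keratan sulfate proteoglycan of cornea and tendon, stood at 1758 and 1034 against 6.96 and 11.7. Chad had 1633 and 1725, Comp 1651 and 1664, and Cilp2 1258 and 1112 CPM. The 7 together made up 29895 and 23791 CPM in tenocytes. They made up 230 and 221 in fibro-adipogenic progenitors, 63.3 and 220 in mural cells (pericytes and smooth muscle), 59.9 and 130 in muscle stem cells, 70.7 and 189 in endothelial cells and 153 and 250 in immune cells. Immune cells are not known to make these proteins, so their level is taken as the background, which was higher in library 2. The immune class can include some of the 10 and 11 cells that failed the tenocyte rule for a Ptprc UMI alone. Their part in this level was not tested.

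The start sites of 3 genes that define these cells are shown because scleraxis is a helix-loop-helix factor, a family that binds E-boxes (CANNTG). The windows run from 250 bases before to 50 bases after the start in RefSeq's annotation of GRCm38.p6, 5′ to 3′ on the gene's strand, with each E-box in capitals. They are chrX:133850758-133851057 (plus strand) for Tnmd, chr1:134037004-134037303 (plus) for Fmod and chr13:92794769-92795068 (minus) for Thbs4.
Tnmd: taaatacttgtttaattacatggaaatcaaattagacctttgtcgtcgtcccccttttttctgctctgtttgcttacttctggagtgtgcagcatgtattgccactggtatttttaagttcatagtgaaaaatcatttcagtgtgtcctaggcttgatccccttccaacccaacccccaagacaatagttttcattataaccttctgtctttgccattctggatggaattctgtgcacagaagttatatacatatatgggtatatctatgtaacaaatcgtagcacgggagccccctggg
Fmod: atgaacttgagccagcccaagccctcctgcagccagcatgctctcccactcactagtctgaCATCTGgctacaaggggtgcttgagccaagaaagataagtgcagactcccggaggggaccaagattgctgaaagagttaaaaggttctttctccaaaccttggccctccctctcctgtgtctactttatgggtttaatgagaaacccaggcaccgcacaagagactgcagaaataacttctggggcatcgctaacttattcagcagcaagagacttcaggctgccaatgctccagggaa
Thbs4: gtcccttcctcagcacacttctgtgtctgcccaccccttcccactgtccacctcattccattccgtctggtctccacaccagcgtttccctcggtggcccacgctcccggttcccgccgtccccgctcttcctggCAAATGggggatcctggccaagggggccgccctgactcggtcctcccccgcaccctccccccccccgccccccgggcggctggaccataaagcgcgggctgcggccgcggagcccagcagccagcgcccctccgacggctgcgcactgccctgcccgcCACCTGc
The Tnmd window holds 0 E-boxes, that of Fmod 1 and that of Thbs4 2. Of the 6 genes of the rule with a window in the RefSeq table, 4 had an E-box, and of all 32851 windows 72.3% had one. A match is only a run of letters, and its absence says only that these letters are not in this window.

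Both tendon transcription factors were also higher in tenocytes, although neither was part of the rule. Scx had 259 CPM in tenocytes of library 1 (interval 234 to 286) and 169 (151 to 189) in library 2, against 1.63 and 2.79 in all other cells. Mkx had 107 (91.3 to 125) and 90.5 (77.3 to 105), against 0.898 and 1.91. In fibro-adipogenic progenitors of library 1 neither gene had a UMI, so that with a floor of 3 UMIs over the class Scx was at least 346-fold and Mkx at least 143-fold higher in tenocytes. In library 2 the progenitors had 3 UMIs of each gene, and the ratio was 125 for Scx (counting interval 42.3 to 608) and 66.8 for Mkx (22.5 to 327). Both are low in any single cell. With each cell thinned to 1000 UMIs, which left out 2 and 7 tenocytes, an Scx UMI was found in 18.4% and 12.1% of tenocytes and an Mkx UMI in 7.21% and 7.48%, while 83.0% and 71.5% had Tnmd and 95.4% and 94.6% had Fmod. Unthinned, Scx was found in 48.2% and 27.3% of tenocytes. Thinned immune cells, whose unthinned median depth was 2677 and 2269 UMIs, had Scx in 0% and 0.444%, Tnmd in 0.970% and 2.37% and Fmod in 2.74% and 6.21%. Of 17 tendon regulators listed, 11 passed the level minimum explained next, and the third above 4-fold was the homeobox gene Meox1, at 118 and 81.9 CPM against 25.5 and 20.5. Over all genes past that minimum, 3.12% were at least 4-fold above other cells. Egr1, an activity-induced factor also tied to tendon collagen, was level with other cells at 779 and 494 against 708 and 498.

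Across all genes, tenocytes were compared with all other cells of the same library, a description and not a test because the cells were chosen by their transcripts. Among 5413 genes with a mean of at least 20 CPM, leaving out those of the rule and Ptprc, 169 (3.12%) were at least 4-fold higher in tenocytes in both libraries and 362 (6.69%) at least 4-fold lower. The median log2 fold over all 5413 genes was -0.13. The leading genes were Wif1, a secreted Wnt inhibitor, at 629 and 479 CPM against 3.37 and 5.50, and the pentraxin Ptx4 at 368 and 266 against 1.46 and 3.37. Angptl7, a secreted angiopoietin-like protein, had 2116 and 2002 CPM against 20.3 and 34.7, or 104-fold and 57.7-fold. The remainder of the 25 genes furthest above other cells included collagen chains (Col11a1, Col11a2, Col22a1, Col8a2, Col12a1), matrix proteins (Mfap4, Matn4, Cilp, Itgbl1, Egfl6, Scube2), the collagen cross-linking enzyme Lox, the protease inhibitor Timp1, the potassium channel Kcnma1 and the prostacyclin synthase Ptgis. The 10 genes furthest below were leukocyte genes, led by the complement gene C1qa at 1.31 and 1.61 against 111 and 74.9. Low leukocyte genes follow from the choice of cells, since the rule left every cell with a Ptprc UMI among the other cells.

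**Figure D2:**
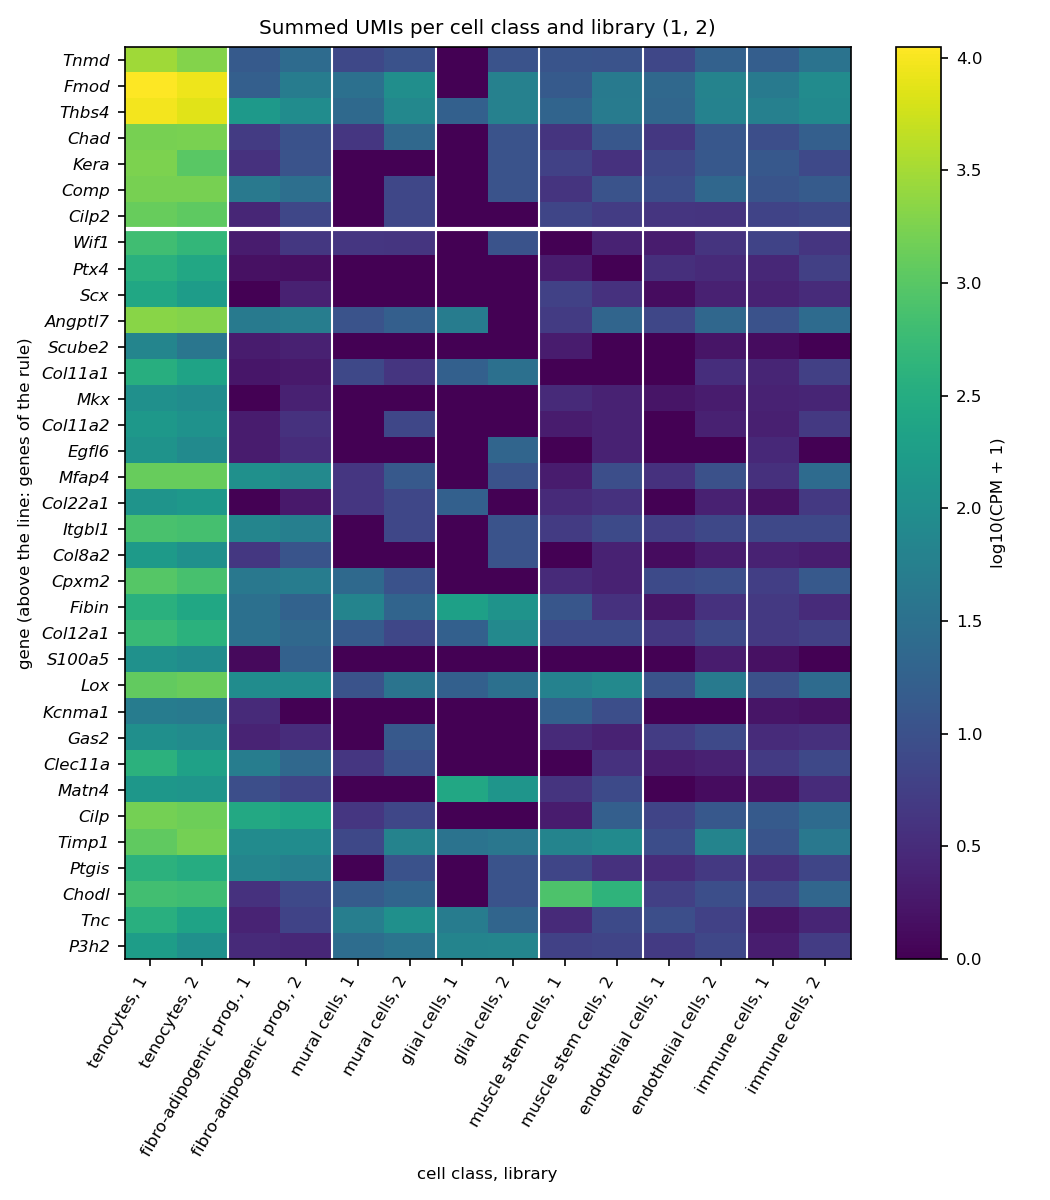
Summed CPM of the 7 genes of the rule (above the white line), the 25 leading genes and 3 more (rows) in tenocytes and 6 other cell classes (columns, library 1 then 2), as log10(CPM + 1). Tenocyte columns are the brightest in nearly every row, with Chodl also high in muscle stem cells and Matn4 in glial cells.

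Type I chains were the most abundant of the fibril-forming collagens in tenocytes, and the minor type XI chains stood further above other cells. Col1a1 stood at 16758 and 9678 CPM in tenocytes, against 798 and 489 in other cells and 2929 and 1882 in fibro-adipogenic progenitors. Col1a2, its partner chain, stood at 13911 and 8402, against 999 and 526 and against 3744 and 2156. Col11a1, a minor chain that nucleates fibrils, had 341 and 224, against 1.35 and 4.69 in other cells. Col12a1, which decorates fibrils in load-bearing tissue, had 530 and 388 against 11.2 and 13.4. Col3a1, the chain of thin reticular fibrils, went the other way: 1941 and 848 in tenocytes against 6659 and 3074 in fibro-adipogenic progenitors. Of 20 listed chains past the minimum, 9 were at least 4-fold above other cells and none 4-fold below, with a median log2 fold of 1.88. Over all genes, 3.12% were above and 6.69% below.

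Against fibro-adipogenic progenitors alone, the nearest fibroblast class (730 and 561 cells), 96 of 5084 genes (1.89%) were at least 4-fold higher in tenocytes and 154 (3.03%) lower in both libraries, with a median log2 fold of -0.0056. These cells were picked by 7 markers of their own (Pdgfra, Dpt, Clec3b, Smoc2, Pi16, Cxcl14 and Dmkn), and all 7 were lower in tenocytes by that choice. Collagen chains divided: 7 of 20 were higher (Col1a1, Col8a2, Col11a1, Col11a2, Col12a1, Col16a1, Col22a1) and 3 lower. The 3 were Col14a1, which binds fibril surfaces, at 35.9 and 19.3 against 303 and 160, Col15a1 of the basement membrane zone at 63.3 and 25.7 against 291 and 180, and Col5a3 at 51.6 and 23.0 against 231 and 192. The beaded-filament chains Col6a1 and Col6a2 differed little, with 1025 and 704 against 1081 and 733 for Col6a1.

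**Figure D3:**
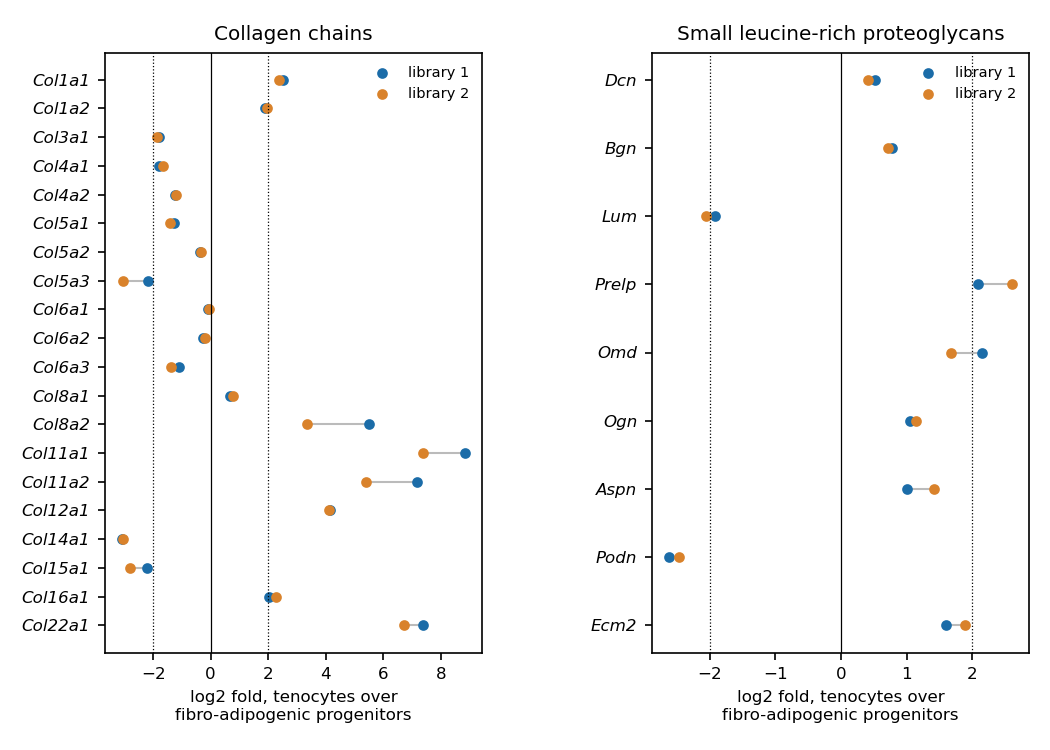
Log2 fold of summed CPM, tenocytes over fibro-adipogenic progenitors, for the collagen chains (left) and small leucine-rich proteoglycans (right) past the level minimum. Each point is a library and dotted lines mark 4-fold. Col11a1 and Col22a1 lie far to the right and Col14a1 to the left in both libraries.

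Small leucine-rich proteoglycans, which set the width of collagen fibrils, were high in both fibroblast kinds. Decorin (Dcn) gave 25847 and 21436 CPM in tenocytes, against 4741 and 3465 in other cells but 18041 and 16141 in fibro-adipogenic progenitors. Of 9 members outside the rule, 7 were at least 4-fold above other cells (Dcn, Bgn, Prelp, Omd, Ogn, Aspn, Ecm2), beside 3.12% of all genes. Against the progenitors only Prelp passed 4-fold, at 1144 and 1661 against 269 and 273. Podn was below, at 30.0 and 20.3 against 185 and 112. In that comparison 1.89% of all genes were higher and 3.03% lower. Lumican (Lum) was near other cells at 430 and 251 against 418 and 248, and under the progenitors at 1636 and 1044.

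Matrix glycoproteins fell on both sides of the progenitors. Of 32 past the minimum, 16 were at least 4-fold above other cells, beside 3.12% of all genes. Sparc, a collagen-binding protein, had 14368 and 12975 CPM against 1809 and 1475, and Mgp, which restrains calcification, had 6612 and 5545 against 491 and 587. Against fibro-adipogenic progenitors 6 were higher (Thbs2, Tnc, Cilp, Matn4, Mfap4, Fibin) and 5 lower (Fbn1, Mfap5, Vcan, Ecm1 and Smoc2, the last fixed by the choice of progenitors). In that comparison 1.89% of all genes were higher and 3.03% lower. Tenascin-C (Tnc), a stretch-responsive tendon glycoprotein, had 358 and 222 CPM, against 1.496 and 5.42 in the progenitors. Genes of elastic microfibrils did not move as a group. Fbn1 had 91.4 and 89.9 against 627 and 393, and Mfap5 had 184 and 183 against 1911 and 1500, while Mfap4 had 1264 and 1293 against 105 and 80.4 and Mfap2 had 197 and 189 against 112 and 134.

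Enzymes that hydroxylate, trim and cross-link collagen followed, with 8 of 22 at least 4-fold above other cells (Lox, Loxl3, P3h2, P3h3, P3h4, Plod2, Pcolce, Crtap). Lox stood at 1205 and 1326 against 35.6 and 52.2. The prolyl 3-hydroxylase P3h2 stood at 178 and 105 against 3.76 and 6.89. Against fibro-adipogenic progenitors only Lox and P3h2 were higher and P4ha2 was lower, beside 1.89% of all genes higher and 3.03% lower. Among 16 proteases and inhibitors, Mmp2, Timp1 and Ctsk were above other cells and Timp4 below. For both of these lists, the shares over all genes were 3.12% above other cells and 6.69% below. Of 11 genes of glycosaminoglycan synthesis past the minimum, 3 were at least 4-fold lower than in the progenitors, 8 were neither and none was higher, beside 3.03% of all genes lower. The 3 were Has1 and Has2, which make hyaluronan, and Ugdh. Has1 had 200 and 157 against 1444 and 1076, Has2 had 1.31 and 1.07 against 77.8 and 34.8, and Ugdh, which makes the sugar nucleotide for hyaluronan, had 356 and 350 against 1838 and 1982.

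Signalling genes above other cells were secreted ligands and modulators for the most part. Over all genes past the minimum, 3.12% were at least 4-fold above other cells and 6.69% below. Of 23 genes of TGF-beta, BMP and GDF signalling past the minimum, the ligands Tgfb2, Tgfb3, Bmp5 and Inhba, the latent-form binder Ltbp3 and the BMP antagonist Chrdl1 were at least 4-fold above other cells, and Id1, a BMP target, was below. Tgfb2 had 110 and 147 CPM against 27.0 and 34.1, and Tgfb3 had 92.1 and 85.6 against 15.9 and 15.1, while Tgfb1 was not among them, at 74.4 and 105 against 127 and 183. Against fibro-adipogenic progenitors none of 25 was 4-fold higher, and Gdf10 was lower, beside 1.89% of all genes higher and 3.03% lower. Of 5 Wnt pathway genes, Wif1, Sfrp2, Sfrp4 and the receptor Fzd1 were above other cells. Of 8 set against the progenitors, Wif1 and Dkk3 were at least 4-fold higher, Sfrp1 was lower and 5 were neither. Sfrp2 and Sfrp4 were uneven among tenocytes, and stood higher in the 44 of each library that also met the progenitor rule, described below. Sfrp2 had 1250 and 393 CPM in those cells, against 62.5 and 56.2 in the remaining tenocytes. Sfrp4 had 511 and 868 CPM, against 165 and 94.1. Of 17 growth factors and receptors, 5 were above other cells (Pdgfrl, Angptl1, Angptl2, Angptl7 and Ctgf) and none below. Ctgf, a matricellular growth factor induced by stretch, had 2390 and 1331 against 90.3 and 94.4. Of 20 growth factors and receptors set against the progenitors, Pdgfa, Pdgfrl, Angptl7 and Ctgf were higher, Fgf7 and Pdgfra were lower and 14 were neither. The chemoattractant Pdgfa had 133 and 95.8 CPM in tenocytes and 5.99 and 4.52 in fibro-adipogenic progenitors. Its receptor Pdgfra, one of the markers that picked the progenitors, had 17.6 and 18.2 CPM in tenocytes. None of 23 immediate early and heat shock genes was 4-fold away from other cells in both libraries, nor was any of 24 ribosomal protein genes. Most genes were not: 4882 of all 5413 were neither higher nor lower.

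No class of sheath or cartilage cells was defined here, so markers of these neighbouring tissues were compared with progenitors or all other cells. Of 9 tendon sheath genes past the minimum, 6 were at least 4-fold below fibro-adipogenic progenitors, beside 3.03% of all genes (Ly6a, Pdgfra, Cd34, Pi16, Creb5, Has1), of which Pdgfra and Pi16 had also been used to pick those progenitors. Tppp3, a marker of sheath cells, had 215 and 162 CPM against 984 and 535. No sheath gene was 4-fold higher than in the progenitors in both libraries. Of 9 sheath genes set against all other cells, Prg4 was at least 4-fold higher, Ly6a and Pi16 were lower and 6 were neither. Over all genes, 3.12% were higher and 6.69% lower. Lubricin (Prg4), the joint and sheath lubricant, had 1291 and 1544 CPM against 136 and 195 in all other cells. The cartilage genes Matn3 and Col2a1 did not reach the minimum. Matn3 had 46.4 and 30.0 CPM against 0.393 and 0.293, and Col2a1 had 28.1 and 19.8 against 0.393 and 0.147. Sox9, the cartilage regulator, had 25.5 and 39.1 against 17.5 and 22.9.

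Markers of other cells were present at low levels in tenocytes. Mural cell markers summed to 232 and 317 CPM, most of it Ndufa4l2, against 16529 and 12813 in mural cells and 73.3 and 126 in fibro-adipogenic progenitors. Endothelial markers summed to 107 and 240, against 6871 and 7083 in endothelial cells, and muscle fibre markers to 50.3 and 246. Muscle stem cell markers summed to 683 and 661 CPM, nearly all of it Chodl, which encodes the lectin chondrolectin. Chodl stood at 666 and 615 in tenocytes and 814 and 432 in muscle stem cells, a class it helped to define, against 2.74 and 6.78 in fibro-adipogenic progenitors. In thinned tenocytes 34.4% and 30.1% had a Chodl UMI, and in thinned immune cells 0.571% and 1.18%. In all, 52 and 61 tenocytes also met the marker rule of another class, 44 in each library that of fibro-adipogenic progenitors. Their part in the levels above was not tested, but without these 52 and 61 cells 171 genes were at least 4-fold above other cells and 105 above the progenitors.

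The 44 tenocytes of each library that also met the progenitor rule differed from the rest in more than those markers; this division was chosen after the values had been seen, and no test was made. They held 3052 and 2770 CPM of progenitor markers, against 616 and 641 in the remaining tenocytes, and their median depth was 6042.5 and 5202 UMIs against 4642 and 3326. Of 1231 genes at 100 CPM or more, 31 were at least 2-fold higher in both libraries, among them the division's own markers, Col3a1 (5842 and 2454 against 1113 and 621), Lum and Ly6a, and 7 were lower. Tnmd had 2220 and 1422 CPM against 3173 and 2084, and Mkx 37.3 and 21.6 against 122 and 100.2. Scx had 168 and 173 against 279 and 169. Whether these were mixed droplets was not tested.

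A second division, by a UMI of Col22a1, was likewise chosen after the values had been seen and is given without a test. Collagen XXII is known from tissue junctions such as the one between tendon and muscle fibre. A Col22a1 UMI was present in 61 (19.9%) and 79 (16.2%) tenocytes, against 0% and 0.357% of fibro-adipogenic progenitors and 0.171% and 0.739% of immune cells. Depth was similar in library 1, with medians of 4713 and 4849 UMIs with and without it, but not in library 2, with 4112 and 3377. The markers of fibro-adipogenic progenitors were also uneven, at 496 and 549 CPM with it and 1175 and 983 without it. Of 1256 genes at 100 CPM or more, 34 were at least 2-fold higher with Col22a1 in both libraries and 28 at least 2-fold lower. On the higher side were Mgp, at 18498 and 15978 against 3710 and 3263, the matrix protein Postn at 1035 and 1673 against 106 and 41.8, fibronectin (Fn1) at 1597 and 1911 against 582 and 407, and the basement membrane chains Col4a1, Col4a2 and Col18a1. Chodl, with 1926 and 1452 against 358 and 432, and Ptx4 were on the same side. On the lower side were the Wnt modulators Wif1 (126 and 50.7 against 752 and 572), Sfrp2 and Sfrp4, the antioxidant enzyme Gpx3 (266 and 215 against 1688 and 1812), clusterin (Clu), and the rule's own Comp and Chad. Sfrp2 and Sfrp4 were also at least 2-fold higher in the tenocytes that met the progenitor rule. The part of those cells in this second division was not tested. Tnmd, Kera, Thbs4, Scx and Mkx were less than 2-fold apart in each library.

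**Figure D4:**
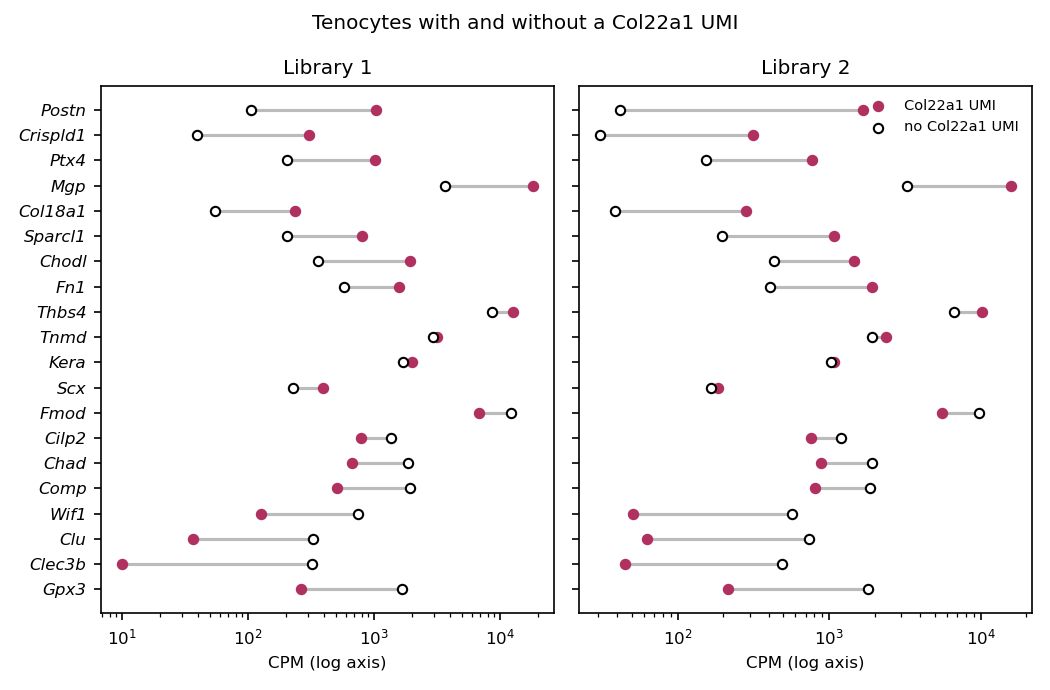
CPM (log axis) of 20 genes in tenocytes with a Col22a1 UMI (filled) and without one (open), 1 panel per library. Mgp, Postn and Chodl lie higher and Wif1, Gpx3 and Comp lower with Col22a1, while the Tnmd and Kera points nearly touch.

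Of the genes behind the antibodies of the bulk sort, Pecam1 and Ly6a were at least 4-fold below all other cells, Vcam1 was not, and Itga7 did not reach the minimum. Itga7, the laminin receptor subunit used as the positive gate, had 0 UMIs in library 1, where the floor of 3 UMIs stands at 1.96 CPM. In library 2 it had 4 UMIs, or 2.14 CPM (counting interval 0.583 to 5.48). Mural cells had 336 and 166 CPM of Itga7 and muscle stem cells 60.9 and 55.3. Vcam1 stood at 68.6 and 125 in tenocytes, against 99.4 and 237 in all other cells and 741 and 574 in muscle stem cells. It was found in 2.95% and 5.82% of thinned tenocytes and 0.514% and 2.37% of thinned immune cells (10.4% and 13.7%, and 1.14% and 5.76%, unthinned). Ly6a (Sca1) stood at 223 and 151 against 2118 and 1328 in fibro-adipogenic progenitors, and Pecam1 (CD31) at 20.9 and 41.8. These are transcripts, and the sort read proteins.

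The bulk libraries took no part in the choice of cells, so genes picked in the single cells could be tested there. Values are FPKM, fragments scaled to gene length and library size. Differences were taken between log2 values after 1 FPKM was added, so those of low genes are understated. In bulk, more cells of a type and more RNA per cell cannot be told apart. All 7 genes of the rule were high in freshly sorted SMMC. Tnmd had 4526, 2638 and 1642 FPKM in the 3 fresh SMMC libraries and 1.35 and 0.974 in the 2 MuSC libraries, a log2 difference of 10.29 (SE 0.636; limma adjusted p = 8.19e-08). Thbs4 had 6514, 5756 and 4137 FPKM against 5.39 and 3.07, and Fmod had 4029, 3008 and 1999 against 8.41 and 5.17. No fresh SMMC library overlapped a MuSC library for these genes. After 3 days of culture Tnmd had 1.37, 5.09 and 2.87 FPKM, a fall from fresh SMMC of log2 -9.46 (SE 0.569; limma adjusted p = 4.15e-08), and in differentiating SMMC it had 4.42, 6.16 and 0.314.

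Of the 169 genes at least 4-fold above other cells in the single cells, 166 were left after predicted genes were set aside, and 165 could be tested in bulk. Of these 165, 146 were higher in fresh SMMC than in MuSC by limma at an adjusted p below 0.05, read against 41.7% of all 13233 genes tested. Only Lpar1, Ncs1 and Nfix were lower, read against 18.0% of all genes, and 16 did not pass. The median log2 difference was 3.61 for the tenocyte genes and 0.45 for all. The background depends on scaling: TMM rescaling gave 4208 higher and 3810 lower genes and quantile normalization 3737 and 4027, in place of 5522 and 2384, with a median over all genes of 0.07 and -0.04. The tenocyte genes gave 141 and 143 higher and 8 and 5 lower under these settings. Tnc was among the 16, at 139, 121 and 93.4 FPKM against 129 and 41.3, and so were Ctgf, Tgfb2 and Kcnma1, with adjusted p of 0.227, 0.264 and 0.11 by limma (for Kcnma1, 0.027 without fresh SMMC replicate 3). Ncs1, a neuronal calcium sensor, had 17.9, 10.2 and 7.26 FPKM in fresh SMMC against 602 and 763 in MuSC.

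The same 165 genes were then compared between proliferating and fresh SMMC; the fresh libraries are shared with the comparison above, so the directions of both are not independent. By limma 137 were lower in culture, read against 35.4% of all genes tested, 13 were higher, read against 33.1%, and 15 did not pass. The median log2 difference was -3.03 for the tenocyte genes and -0.06 for all. Col1a1 had 1833, 1169 and 1054 FPKM fresh and 2.88, 4.06 and 5.77 after culture, and Dcn 3528, 2613 and 1819 against 4.57, 2.69 and 1.42. Among the 13 were Spp1 (osteopontin), with 77.7, 37.6 and 27.9 FPKM fresh against 908, 625 and 639 in culture, S100a4, Cthrc1 and Ncs1.

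Mkx fell in culture, while Scx did not pass the test. Mkx had 67.2, 58.3 and 31.4 FPKM in fresh SMMC and 2.75 and 2.09 in MuSC, a log2 difference of 3.90 (SE 0.586; limma adjusted p = 0.000107), and 0.902, 4.69 and 3.14 after culture, a log2 difference of -3.84 (SE 0.525; limma adjusted p = 3.42e-05). Scx had 2.91, 1.91 and 2.11 FPKM in fresh SMMC against 0.00778 and 0.0331 in MuSC, a log2 difference of 1.69 (SE 0.238; limma adjusted p = 6.28e-05). In proliferating SMMC Scx had 2.36, 2.67 and 2.41 FPKM, with groups that overlap, a log2 difference of 0.08 (SE 0.213) and a limma adjusted p of 0.744. With quantile normalization this difference was 0.57 (limma adjusted p = 0.0395), and without fresh SMMC replicate 2 it was -0.0038 (limma adjusted p = 0.992). In differentiating SMMC it had 5.36, 7.30 and 8.73 FPKM, above every other bulk library, while Mkx had 4.62, 9.42 and 1.25 and Tnmd stayed below 10 FPKM. Col22a1 and Mgp, from the second division of tenocytes, were both high in fresh SMMC, Col22a1 at 67.1, 29.9 and 13.9 FPKM against 0.0260 and 0.0231 in MuSC and Mgp at 991, 756 and 523 against 0.567 and 0.267.

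**Figure D5:**
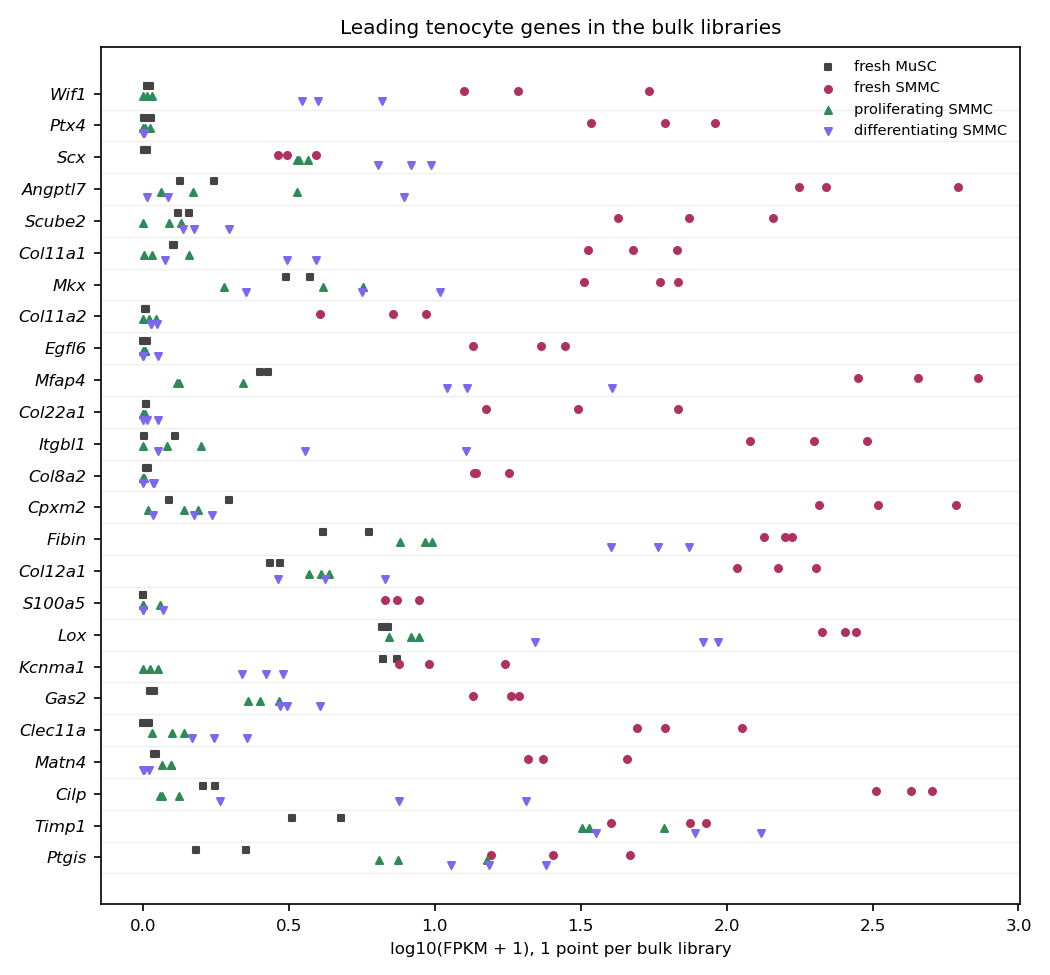
Log10(FPKM + 1) of the 25 leading tenocyte genes (rows) in each of the 11 bulk libraries, by group. Fresh SMMC points lie to the right of the others in most rows, with Scx, Timp1, Ptgis and Kcnma1 as exceptions where groups meet or are passed.

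Within fresh SMMC the tenocyte genes were not level between libraries. All 7 genes of the rule were highest in replicate 1 and lowest in replicate 3, as were 110 of the 165 tenocyte genes (66.7%) and 2237 of all 13233 genes tested (16.9%). The opposite order was found for 11 of the 165 tenocyte genes (6.67%) and 4042 of all genes tested (30.5%). Itga7 was among the latter, with 24.9, 48.9 and 72.8 FPKM, and so was the pericyte gene Rgs5, with 688, 1250 and 1573. The part of this order in the comparisons was not tested, but without fresh SMMC replicate 1 the tenocyte genes gave 142 higher and 3 lower against MuSC.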

How the data were processed

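Single-cell values were UMI counts in 2 tables that the authors deposited. Their filters on cells and genes before deposit are not given in the sources used here. Bulk values were FPKM per gene symbol, as deposited by the authors per the file headers. Per the submitters' processing notes, Cell Ranger 2.2.0, STAR 2.5.1b, Seurat 2.3.4, R 3.5.1, HISAT2 2.1.0, SAMtools 1.3.1 and StringTie were among the tools used, with build mm10. Depth of the bulk libraries is unknown, since FPKM keeps no counts. The bulk table held 4 further columns that matched no sample and were not used. Reads of overlapping, antisense or near-identical genes may be split.

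From the counts, UMIs were summed over cells per class and library (13884 genes in both tables), scaled to 1000000 (CPM) and compared as folds, with a floor of 3 UMIs and exact Poisson intervals. No test was made on these, since the rule used the same values. Other classes held cells with at least 5 UMIs over 7 markers, UMIs of at least 3 of them and the rule of no other class met, so they are rebuilt from markers and not the authors' own. Doublets were called with Scrublet (scanpy 1.11.5) and kept, with their removal as an alternative. Scrublet marked 1.07% and 1.03% of cells. From FPKM, log2(FPKM + 1) was fitted with limma 3.58.1 (R 4.3.3, trended empirical Bayes) over all 11 libraries, with Benjamini-Hochberg adjustment over 13233 genes at 1 FPKM or more in at least 2 libraries; edgeR 4.0.16 served only for TMM factors. Both steps were checked on simulated data. Named genes are those of the rule and the sort, the 25 furthest above and 10 furthest below other cells by the smaller of both libraries' folds, the 10 furthest above fibro-adipogenic progenitors and up to 5 members of each of 26 gene lists, plus members where few passed. Genes named for the divisions within tenocytes, Ncs1 and Spp1 were chosen after their values were seen. The members and lists were chosen with earlier results of these data known. Deviations of same-numbered bulk replicates from their group means had correlations of 0.117 and 0.011 between fresh SMMC and MuSC. Between proliferating and fresh SMMC they were 0.085, 0.040 and 0.061. Replicates with unlike numbers ranged from -0.117 to 0.104. With 2 MuSC libraries, each value that involves MuSC has a counterpart of opposite sign by construction. No pairing is given in the labels, and the numbers were not used as pairs.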

Additional observations from a re-analysis of the deposited data

How the results depend on the processing

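With tenocytes that met another class rule left out, the share was 4.19% and 6.85% of cells. A minimum of 100 CPM left 70 genes 4-fold higher and 77 lower than other cells and 35 higher and 66 lower than fibro-adipogenic progenitors, with fewer genes in play. With no minimum these counts were 386, 806, 220 and 271, and at 2-fold 457, 673, 229 and 349. In bulk, tenocyte genes lower in fresh SMMC than in MuSC numbered 5 with quantile normalization and 8 with TMM rescaling, against 3, and the cause was not tested. The labels do not say whether the replicate number shared between groups pairs the samples. With that number as a replicate block 147 genes were higher and 3 lower against MuSC and 15 higher and 137 lower in culture. Scx in culture against fresh SMMC ranged from -0.0038 (without fresh SMMC replicate 2, limma adjusted p = 0.992) to 0.2085 when single libraries were left out and reached 0.57 (limma adjusted p = 0.0395) with quantile normalization. Kcnma1 in fresh SMMC against MuSC was -0.0077 (limma adjusted p = 0.991) with quantile normalization and 0.88 (limma adjusted p = 0.027) without fresh SMMC replicate 3. The cause of these was not tested. Under the alternatives run, 1018 values of single genes kept their direction and call. The other 82 values of counts and shares were labelled the same as the main values, which does not mean that they were equal. Counts not listed above as changed still varied. For example, tenocyte genes higher in culture numbered 13 in the main setting, 9 without fresh SMMC replicate 3 and 15 with the replicate block. With 2 single-cell libraries no spread between animals can be given, and bulk depth is unknown.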
